A study of Mus musculus with 6 samples.

Results

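Cry1 and Cry2, the mouse cryptochrome genes, were followed across all 6 arrays of a liver series by every probe set that the platform's annotation names for them. These are 2 of 8251 genes with an unambiguous name on the array, and they had 4 of its 12422 probe sets that are not controls: 3 for Cry1 and 1 for Cry2. Total RNA of liver from male mice 8 to 10 weeks old was hybridised to 1-colour arrays, with 1 array for each combination of 3 genotypes and 2 circadian times. The groups were wild type on a C57BL/6 background, Clock mutant, and Cry-deficient, each at CT02 and at CT14, that is, at hours 2 and 14 of the circadian day, early in the animals' subjective day and early in their subjective night. Of the arrays labelled Cry-deficient, the one at CT02 was described as a double knockout of Cry1 and Cry2 and the one at CT14 only as deficient in Cry. Not given in the sources used here are the allele of the Clock mutant, the parts of Cry1 and Cry2 that were deleted, the strain of either mutant and any pooling of mice. With 1 array per group there was no replicate error and no test, so every difference is given as its size beside the share of all probe sets that differed as much on the same arrays.

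In the circadian clock, the proteins CLOCK and BMAL1 (the product of Arntl) bind E-box sequences and switch on the Per and Cry genes. PER and CRY proteins then accumulate, enter the nucleus and repress CLOCK and BMAL1, which closes a daily feedback loop. CRY1 and CRY2 are flavoproteins related to DNA photolyases but without repair activity, and they are the strongest repressors in this loop. In liver they are also known to act on hormone and glucose signalling.

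The sequences just upstream of the genes are shown because CLOCK acts through E-boxes. Any link between these sequences and the levels of Cry1 and Cry2 was not tested. Both are the 250 bases before the transcription start that the RefSeq promoter table uses, on build GRCm38.p6, printed 5′ to 3′ along the gene, which lies on the minus strand in both cases. Capitals mark matches to CACGTG, the E-box, and to CACGTT, a common E-box variant. Both motifs were searched on both strands, so that CACGTT can appear as AACGTG. The Cry1 window lies at chr10:85185055-85185304 and that of Cry2 at chr2:92434070-92434319, whose last 16 printed bases already fall within the span RefSeq gives to the Cry2 gene, so that the start used for Cry2 is not the outermost one.
Cry1: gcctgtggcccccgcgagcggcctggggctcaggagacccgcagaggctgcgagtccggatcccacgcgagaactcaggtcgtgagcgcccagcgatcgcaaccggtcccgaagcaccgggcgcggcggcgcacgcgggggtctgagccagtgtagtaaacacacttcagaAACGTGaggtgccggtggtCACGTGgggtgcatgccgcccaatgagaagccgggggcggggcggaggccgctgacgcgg
Cry2: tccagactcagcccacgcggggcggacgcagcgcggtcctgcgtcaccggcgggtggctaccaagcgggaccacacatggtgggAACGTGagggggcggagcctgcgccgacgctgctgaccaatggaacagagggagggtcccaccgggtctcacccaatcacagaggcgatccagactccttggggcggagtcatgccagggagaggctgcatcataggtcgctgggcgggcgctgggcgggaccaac

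The Cry1 window held CACGTG at bases -60 to -55 and the variant at -79 to -74, counted back from the start used, which follows the last printed base. The Cry2 window held the variant at -166 to -161, counted in the same way, and no CACGTG. Of 32851 windows of this length upstream of mouse genes, 6.02% held CACGTG and 3.85% held the variant. The D-box letters TTATGTAA and TTACGTAA, bound by Dbp and its relatives, and AGGTCA, the core letters of REV-ERB and ROR sites, were in neither window, against 0.819%, 0.113% and 14.02% of all windows. Both windows were rich in G and C, at 71.2% for Cry1 and 68.8% for Cry2, where the median window had 52.4%. These matches describe letters in a short window and are not evidence of binding.

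Before the results, the arrays themselves differed. The Clock mutant CT02 array was the dimmest, with a mean deposited intensity of 1637 against 2182 to 2486 on the others, and its log2 size factor was -0.43. The ratio of 3′ to 5′ control probes, a sign of RNA length, was 2.68 for Actb on that array, and the others ranged from 0.84 to 1.70. The Gapdh ratio stood out on the Cry-deficient CT02 array, at 2.37, where the other arrays ranged from 0.56 to 0.72. Of 7 hepatocyte markers found on the array 6 were above the floor on every array (Hpd was not), with sums from 74483 to 108268 scaled units. Of 9 macrophage markers 8 or 9 were above it (Marco only on the arrays labelled Cry-deficient), and their sum was 25904 to 25927 on the Clock mutant arrays, 32657 to 33836 in wild type and 37594 to 45886 on the arrays labelled Cry-deficient. That order is also the order of the Cry1 level at CT14. At CT02 the order differed, with Cry1 at 1965 scaled units on the Clock mutant array and 1832 in wild type. The Clock mutant CT14 array also had the lowest hepatocyte sum (74483) and the highest stellate sum (11536). The part of any of these sums in the Cry1 result was not tested. Of 4 endothelial markers 3 were above the floor on every array (sums of 2399 to 4282), of 4 stellate markers 2 to 4 (6686 to 11536) and of 4 lymphocyte markers 1 or 2 (1073 to 2037). The 3 biliary markers found were under it on every array. In whole liver, fewer cells of a type and less RNA per cell cannot be told apart.

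Values are given in scaled units, the deposited intensity divided by a factor per array. The floor, below which a level was not read, was the median of all scaled values, 608 units. A probe set was kept for comparison if its mean over the arrays reached the floor, which 6237 did. Of the 4 cryptochrome probe sets 2 were kept, 1 for each gene.

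Cry1 was readable on 1 of its 3 probe sets, 94420_f_at, whose letter f marks a set that may detect a family of related sequences. Wild type gave 1832 scaled units at CT02 and 2722 at CT14. On the Clock mutant arrays it read 1965 at CT02 and 366 at CT14. On the arrays labelled Cry-deficient it read 3844 at CT02 and 4718 at CT14. The Clock mutant CT14 array was thus the only one of the 6 under the floor, and both arrays labelled Cry-deficient stood above all the others. As a rank that needs no scaling, Cry1 at CT02 lay above 70.3% of the probe sets of the wild-type array, 72.4% of the Clock mutant array and 83.7% of the array labelled Cry-deficient. At CT14 it lay above 77.8%, 41.4% and 86.1%.

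The other Cry1 probe sets, 94421_r_at and 161225_r_at, gave no usable level. At CT02 the first read -71.6 in wild type, 186 on the Clock mutant array and 42.1 on the array labelled Cry-deficient, and at CT14 it read 1.80, 5.73 and 27.0. The second lay between -116 and 2.61 on all 6 arrays. Neither came near the floor on any array, so the Cry1 pattern rests on a single probe set and neither of them can check it. The letter r marks sets for which some of the usual probe selection rules were dropped.

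Cry2 was measured by 1 probe set, 97724_at, which was above the floor on all 6 arrays. Wild type gave 1215 scaled units at CT02 and 2255 at CT14. On the Clock mutant arrays it read 1373 and 1887. On the arrays labelled Cry-deficient it read 1185 and 1344. The values at CT02 lay close together, and the genotypes spread at CT14, in the order wild type, Clock mutant, Cry-deficient. At CT02 Cry2 lay above 62.4%, 65.4% and 63.0% of the probe sets of the wild-type, Clock mutant and Cry-deficient arrays, and at CT14 above 74.2%, 70.9% and 64.5%.

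**Figure D1:**
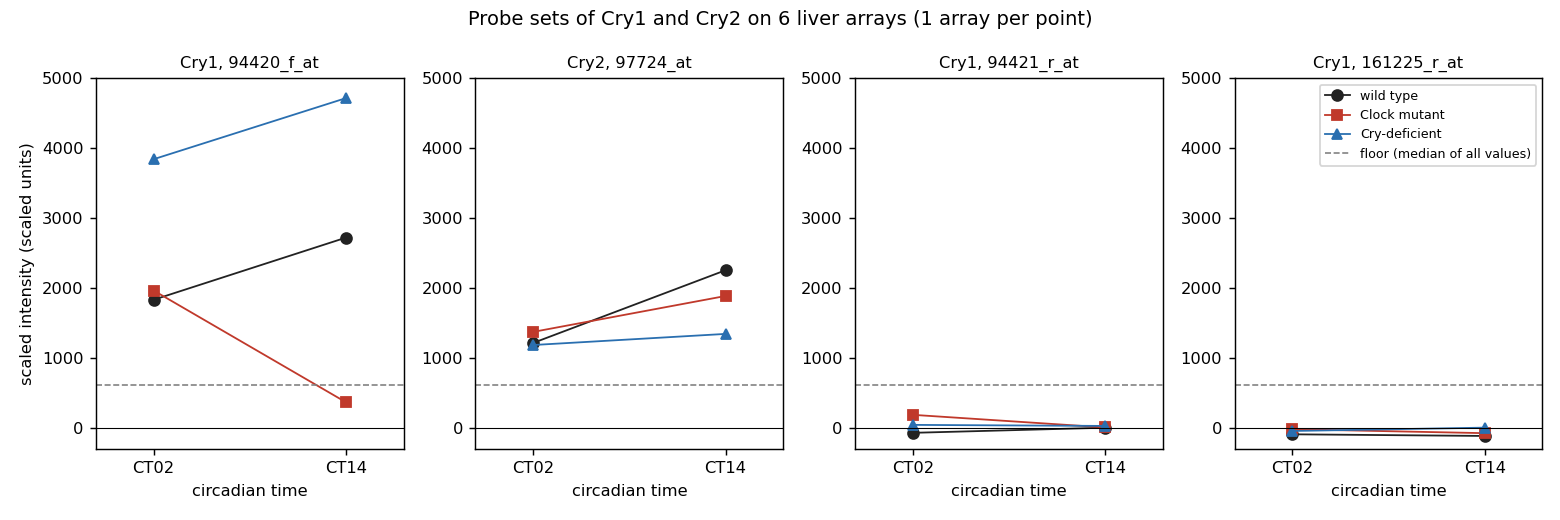
Scaled intensity (vertical axis, scaled units) of the 4 probe sets at CT02 and CT14 (horizontal axis), 1 array per point, lines joining the arrays of a genotype and a dashed line at the floor of 608 units. Cry1 on 94420_f_at reads 1965 and then 366 in the Clock mutant and is highest on the arrays labelled Cry-deficient, Cry2 is higher at CT14 in each genotype, and the other Cry1 probe sets lie under the floor throughout.

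Ordered by level, Cry1 ran from Cry-deficient CT14 through Cry-deficient CT02, wild type CT14, Clock mutant CT02 and wild type CT02 to Clock mutant CT14. Neighbours at the top differed little: the first exceeded the second by 1.23-fold, a gap that 40.3% of kept probe sets matched or passed on those arrays. The second exceeded the third by 1.41-fold (29.1% of kept probe sets), the third the fourth by 1.39-fold (42.0%) and the fourth the fifth by 1.07-fold (85.4%). The last step, from wild type CT02 down to Clock mutant CT14, was at least 3.01-fold, which 2.10% of kept probe sets reached. The whole range was at least 7.76-fold, reached by 0.192% between those same end arrays. Because the end arrays were picked by the Cry1 values, this is not the share of probe sets with as wide a range over any arrays, which can only be larger. The arrays of each step, the last step included, were picked by the Cry1 values too.

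Cry2 ran from wild type CT14 through Clock mutant CT14, Clock mutant CT02, Cry-deficient CT14 and wild type CT02 to Cry-deficient CT02. Its whole range was 1.90-fold, which 10.1% of kept probe sets matched or passed between the same arrays. These end arrays, like those of each step, were picked by the Cry2 values. The share with as wide a range over any arrays can therefore only be larger. The widest step between neighbours was 1.37-fold, from Clock mutant CT14 to Clock mutant CT02 (34.2% of kept probe sets), so each step between neighbouring levels of Cry2 was one that many probe sets matched. The 2 members therefore differed in how far they moved, at least 7.76-fold against 1.90-fold, on probe sets whose absolute levels cannot be compared.

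The first comparison asked whether the cryptochrome genes of wild-type liver read differently at the 2 times. Both were higher at CT14. Cry1 was 1.49-fold higher (log2 ratio 0.57), and 15.9% of kept probe sets were at least as far apart. Cry2 was 1.86-fold higher (log2 ratio 0.89), and 6.33% were. Neither of the 2 reached 2-fold, a mark that 4.70% of kept probe sets passed in this comparison. Among the 3191 kept probe sets within 2-fold of Cry2 in mean level, 8.71% differed as much as Cry2 did.

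In the Clock mutant the same time comparison went opposite ways for the 2 genes. At CT14 Cry1 stood at least 3.23-fold below its CT02 level (log2 ratio -1.69 with the CT14 value set to the floor), a difference that 1.46% of kept probe sets matched or passed. Cry2 was 1.37-fold higher (log2 ratio 0.46), as far apart as 34.2% of kept probe sets. Thus 1 of the 2 passed 2-fold, where 8.32% of kept probe sets did. Without scaling the Cry1 ratio was -1.25 or lower, again a bound because the deposited value of 383 at CT14 was raised to the floor. The Cry1 rank was 72.4% at CT02 and 41.4% at CT14. This pair includes the dimmest array, with its Actb ratio of 2.68 at CT02 and 1.15 at CT14, whose part was not tested.

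On the arrays labelled Cry-deficient the genes differed little between the times. Cry1 was 1.23-fold higher at CT14 (log2 ratio 0.30, matched or passed by 40.3% of kept probe sets) and Cry2 1.13-fold higher (log2 ratio 0.18, 58.5%). Neither passed 2-fold, which 6.27% of kept probe sets did. The wild-type time ratio was larger for both genes. Subtracting it from the time ratio of these arrays left -0.28 for Cry1, as far as 56.6% of kept probe sets, and -0.71 for Cry2, as far as 20.7%. For the Clock mutant the same subtraction left -2.26 or lower for Cry1, a bound because its CT14 value was set to the floor, and 1.03% of kept probe sets, floored in the same way, were as far or farther. For Cry2 it left -0.43 (47.5%). These differences of time ratios share the wild-type arrays.

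Setting the Clock mutant against wild type at either time asked how its cryptochrome levels compared. At CT02 both genes read close to wild type. Cry1 was 1.07-fold higher (log2 ratio 0.10) and Cry2 1.13-fold higher (0.18), and 85.4% and 75.4% of kept probe sets were at least as far apart. On the unscaled values these ratios were -0.45 and -0.38, so their direction depended on scaling, which moved the median of all kept probe sets from -0.50 to 0. Neither gene passed 2-fold, against 12.7% of kept probe sets.

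At CT14 Cry1 was at least 4.48-fold lower in the Clock mutant than in wild type (366 against 2722 scaled units, log2 ratio -2.16), matched or passed by 0.770% of kept probe sets and by 1.21% of the 2978 within 2-fold of its mean level. Cry2 was 1.20-fold lower (1887 against 2255, log2 ratio -0.26), as far apart as 56.9% of kept probe sets. So 1 of the 2 genes passed 2-fold, where 10.0% of kept probe sets did. Cry1 was lower under each of the 6 alternative settings, with log2 ratios from -2.14 to -2.90. The largest of these came with the floor lowered to the 25th percentile, where 366 counted as a reading and not as a bound.

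The arrays labelled Cry-deficient were set against wild type to read the targeted genes on them. Cry1 signal was higher, not lower, on both. It was 2.10-fold higher at CT02 (3844 against 1832 scaled units, log2 ratio 1.07) and 1.73-fold higher at CT14 (4718 against 2722, log2 ratio 0.79). Of kept probe sets 6.19% and 8.47% were at least as far apart. Cry2 was 1.03-fold lower at CT02 (log2 ratio -0.04) and 1.68-fold lower at CT14 (-0.75), matched or passed by 90.7% and 9.67%. At CT02 the sign of the Cry2 ratio turned under quantile normalization and lowess correction, to 0.05. Past 2-fold were 1 of 2 genes at CT02, where 7.33% of kept probe sets were, and 0 of 2 at CT14, where 4.83% were. On the values as deposited, Cry1 at CT02 was under 2-fold, with a log2 ratio of 0.94. The Cry-deficient CT02 array had control probe ratios of 1.70 for Actb and 2.37 for Gapdh, whose part was not tested.

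The Cry1 and Cry2 signals on these arrays therefore did not check the labels in either direction. The position of the probes relative to the deleted parts was not read here, and a probe outside a deleted part reads whatever transcript remains. The arrays labelled Cry-deficient, with signals of 1185 and 1344 for Cry2 and 3844 and 4718 for Cry1, are named by their label alone.

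**Figure D2:**
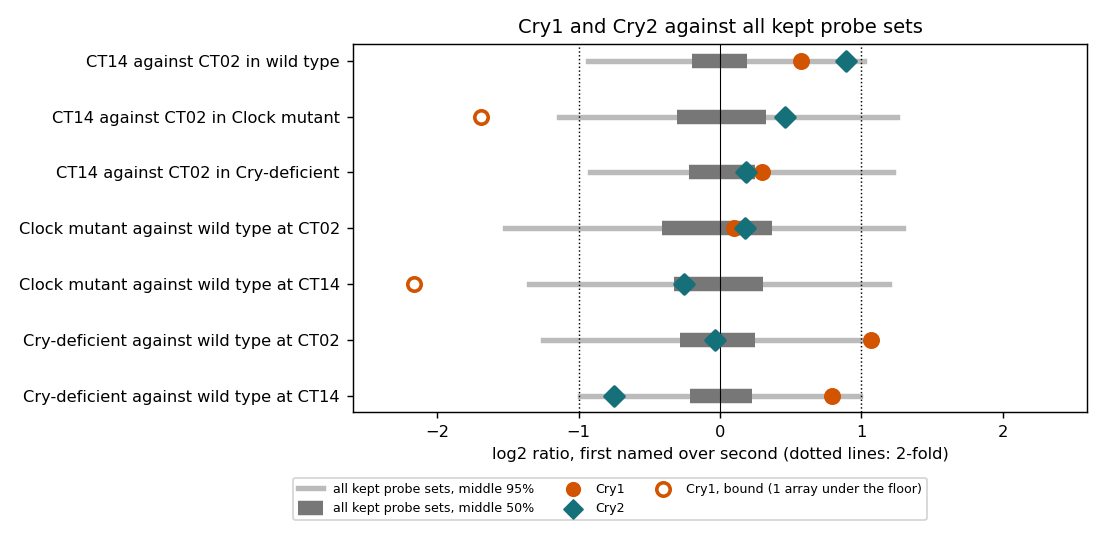
Log2 ratios (horizontal axis) of Cry1 (circles, open where 1 array was under the floor) and Cry2 (diamonds) in the 7 comparisons (vertical axis), with bars for the middle 50% and 95% of 6237 kept probe sets and dotted lines at 2-fold. Cry1 lies outside the middle 95% in the comparisons that involve the Clock mutant CT14 array, at -1.69 and -2.16, while Cry2 stays inside 2-fold in all 7.

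The agreement between probe sets of the same gene on these arrays gives a measure of probe error, although not of error between animals. For genes with 2 readable probe sets, the log2 ratios of the pair differed by a median of 0.22 in the wild-type time comparison (567 genes) and 0.36 for the Clock mutant against wild type at CT14 (547 genes). For the arrays labelled Cry-deficient against wild type the medians were 0.33 at CT02 (525 genes) and 0.25 at CT14 (574 genes). In 5% of these genes the pair differed by more than 0.97, 1.28, 1.43 and 1.06, respectively. The Cry1 ratio of -2.16, a bound with its Clock mutant CT14 value set to the floor, was larger in size than that upper value for its comparison. The pairs were above the floor on both arrays, so they do not cover such a dim reading. The Cry1 ratios of 1.07 and 0.79 and every Cry2 ratio were not larger in size than the upper values for their comparisons. Agreement in sign within a pair was lowest between the times in the Clock mutant, at 58.0% of genes. It was highest between the times in wild type, at 66.3%, counting ratios of any size. The direction of a ratio thus often differed between probe sets of a gene. Each direction given for Cry1 and Cry2 rests on a single probe set.

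Probe sets with the letter f, as that of Cry1, were set beside those with no letter, by the share past 2-fold. For the arrays labelled Cry-deficient against wild type the shares were 8.97% of 535 such kept sets and 6.74% of 5002 with no letter at CT02, and 5.05% and 4.76% at CT14. For the Clock mutant against wild type they were 11.6% and 12.1% at CT02 and 11.03% and 9.68% at CT14. Between the times they were 2.80% and 4.58% in wild type, 9.16% and 7.88% on the Clock mutant arrays, and 6.17% and 5.98% on the arrays labelled Cry-deficient.

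The genes around the cryptochromes in the clock were read from a list of 42, of which 31 were on the array and 23 were kept. In wild type 4 of the 23 were at least 2-fold higher at CT14 and 2 lower, where 4.70% of all kept probe sets were 2-fold apart, with a median log2 ratio of 0.03. The median of all kept probe sets lay between -0.01 and 0.00 in all 7 comparisons. In the Clock mutant 0 were higher and 1 lower between the times (8.32% of all kept probe sets, median 0.09). On the arrays labelled Cry-deficient 2 were higher and 0 lower (6.27%, median -0.09). Against wild type, 1 was higher and 4 lower in the Clock mutant at CT02 (12.7%, median -0.03), and 0 higher and 3 lower at CT14 (10.0%, median -0.32). For the arrays labelled Cry-deficient 6 were higher and 1 lower at CT02 (7.33%, median 0.06), and 3 higher and 0 lower at CT14 (4.83%, median 0.24).

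Of the other repressors, Per2, the partner of the cryptochromes in the repressing complex, was under the floor on the wild-type CT02 array (251 scaled units) and read 4057 at CT14, while the Clock mutant arrays gave 651 and 778. It read 3071 and 2665 on the arrays labelled Cry-deficient. Per2 and Cry1 were thus both low on the Clock mutant CT14 array, but Cry1 was not low with Per2 on the wild-type CT02 array. Bhlhe40, which represses E-box genes, was 8.04-fold above wild type at CT02 on the array labelled Cry-deficient (8922 against 1110) and 1.20-fold below it at CT14. Per3 lay between 3474 and 4414 on all 6 arrays.

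Of the nuclear receptors that feed back on Arntl and that also act on Cry1, Nr1d2, which encodes REV-ERB beta, a repressor, was 3.17-fold and 2.59-fold above wild type on the arrays labelled Cry-deficient at CT02 and CT14 (2906 and 3541 against 916 and 1366). It was under the floor on the Clock mutant CT02 array (21.6). Nr1d1, its sister gene, read 1878 and 1999 in the Clock mutant, against 4100 and 3006 in wild type. Rora, which encodes an activator at the same sites, read 3056 and 1247 in wild type, 891 and 1348 on the Clock mutant arrays, and 3139 and 2504 on the arrays labelled Cry-deficient. At CT14, where Cry1 was lowest in the Clock mutant, Rora there was 1.08-fold above wild type and Nr1d1 was 1.50-fold below it. Both were under 2-fold, which 10.0% of kept probe sets passed in that comparison, and any part of these receptors in the Cry1 level was not tested.

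Of the output factors, which act through D-boxes, Dbp was under the floor in wild type at CT02 and on both Clock mutant arrays, and read 1836 and 2259 on the arrays labelled Cry-deficient, at least 3.02-fold above wild type at CT02 and 3.01-fold above it at CT14. Tef, a relative of Dbp, was 3.02-fold above wild type at CT02 there and 1.07-fold at CT14. Nfil3, which represses at D-boxes, read 2862 on the Clock mutant CT02 array and 1258 on that at CT14, the only member of these lists past 2-fold between the times in that genotype. Arntl was 2.43-fold lower at CT14 in wild type (2101 and 865), 1.53-fold lower in the Clock mutant and 1.33-fold lower on the arrays labelled Cry-deficient. Usp2, a deubiquitinase gene driven by the clock, was under the floor on both Clock mutant arrays and read 5263 and 3514 on those labelled Cry-deficient, against 733 and 3404 in wild type.

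Of the genes listed for cryptochrome stability and for clock kinases, 9 of 14 were on the array and 7 were kept. Usp7, a deubiquitinase of cryptochromes, lay between 2991 and 4178 on all 6 arrays, and Ddb1, a ubiquitin ligase subunit, between 12925 and 16103. Skp1, a subunit of the ligase that removes CRY proteins, read 2674 in the Clock mutant at CT02 against 6554 in wild type, 2.45-fold lower, on the dimmest array. Of genes tied to cryptochrome action in liver, Gnas, the stimulatory G protein that couples glucagon to cAMP, lay between 13606 and 19308. Pck1, a gluconeogenic enzyme gene, read 6543 and 11138 in wild type, 13624 and 7839 on the Clock mutant arrays and 10523 and 8210 on the arrays labelled Cry-deficient, so that only wild type was higher at CT14. G6pc, which releases glucose from glucose 6-phosphate, lay between 16306 and 25126, lowest in wild type at CT14. Nr3c1, the glucocorticoid receptor gene, was under the floor on all 6 arrays.

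**Figure D3:**
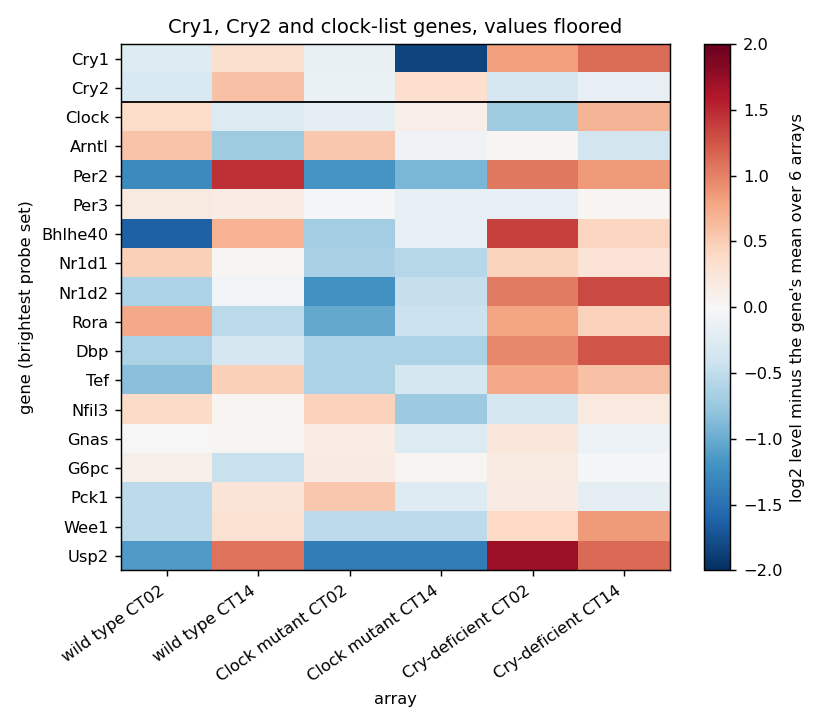
Log2 level of each gene (rows, brightest probe set, values under the floor set to it) minus its mean over the 6 arrays (columns), for Cry1, Cry2 and the kept genes of the clock lists apart from the list for cryptochrome stability and clock kinases. The Clock mutant CT14 array is the lowest for Cry1, and the arrays labelled Cry-deficient are high for Cry1, Nr1d2, Dbp and Usp2 but not for Cry2. For Usp2 at CT14 wild type is nearly as high, at 3404 scaled units against 3514.

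The genes most like Cry1 over the 6 arrays were ranked by Pearson's r of log2 values among 1760 kept genes that spanned at least 2-fold. They were Tmem141 (r = 0.995), Stt3b, an oligosaccharyltransferase subunit (0.983), Map7d1 (0.977), Anp32e, a histone chaperone (0.959), and Acot1, an acyl-CoA thioesterase (0.949). Each was lowest on the Clock mutant CT14 array and highest on those labelled Cry-deficient. Tmem141 spanned 1152 to 2931 and Stt3b 2306 to 4837, narrower ranges than that of Cry1. For Cry2, among 1761 genes, they were Pld1, phospholipase D (0.973), Gnl3 (0.938), Acsm2 (0.933), Inhbe, an activin subunit (0.927), and Ets2, a transcription factor (0.914). Each read highest in wild type at CT14. Pld1 read 1220 scaled units there and 1060 on the Clock mutant CT14 array, and was under the floor on the other arrays. Gnl3, Acsm2 and Inhbe were also under the floor on some arrays, and Map7d1 on the Clock mutant CT14 array. Such values were set to the floor before r was taken. None of the genes named as like Cry1 or Cry2 belonged to the clock lists, and the lists for Cry1 and Cry2 shared no gene. All values of an array share its depth of staining and its scaling, and with 6 points an r of this size is a description only.

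**Figure D4:**
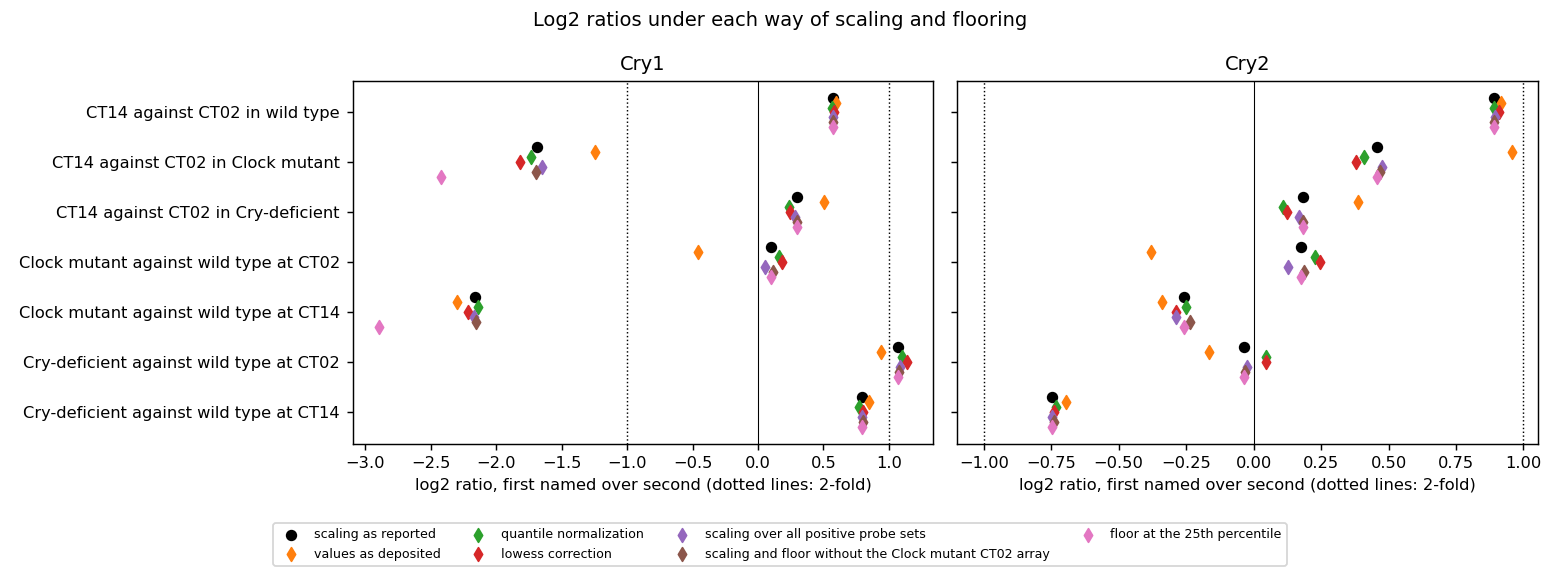
Log2 ratios (horizontal axis) of Cry1 (left) and Cry2 (right) in the 7 comparisons (vertical axis) under the scaling used (black circles) and 6 alternatives (diamonds), with dotted lines at 2-fold. The points of a comparison lie close together except for the values as deposited and the lower floor. The values as deposited shift most the comparisons with the Clock mutant CT02 array. They also shift the time comparison of the arrays labelled Cry-deficient, for Cry1 from 0.30 to 0.50 and for Cry2 from 0.18 to 0.39. The lower floor takes Cry1 in the Clock mutant at CT14 to -2.43 and -2.90.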

How the data were processed

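For each array the authors deposited an intensity per probe set, in whole numbers, of which 21.5% to 23.9% are at or below 0. Not given in the sources used here is how these intensities were made. The 66 control probe sets were set aside. Each array was divided by its median ratio to the geometric mean of the 6, over 6035 probe sets in the brighter part of the array that read above 0 on all arrays. Values below a floor of 608 scaled units, the median of all of them, were raised to it before log2, so that a fold against such a value is a lower bound, written "at least". A gene is shown by its brightest probe set, and Cry1 and Cry2 by all of theirs. Names came from the platform annotation (10855 probe sets with 1 symbol, 396 with several, 1237 with none). By gene number 10839 matched a RefSeq table of GRCm38.p6 and 0 symbols changed, and sequences were taken from its promoter table.

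With 1 array per group no test was made, and precision is limited by the number of arrays. The steps were run on simulated data, where the condition checked was recovery of the size factor of each array. Those data carried no difference in RNA length between arrays. The members and lists were chosen with earlier results of these data known. Named from the lists were members at least 2-fold apart in a comparison, from all 42, and some others with level values. Those others, such as Per3, Usp7, Ddb1, Gnas, G6pc and Nr3c1, were chosen after their values were seen. Calculations used Python 3.11.15, pandas 2.3.3 and statsmodels 0.14.6 (lowess span 0.3).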

Additional observations from a re-analysis of the deposited data

Results flagged for a closer look

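Some results went opposite ways under the same contrast, with 1 array on each side, and none of these differences was tested. The time ratio of Cry1 was below 0 in the Clock mutant and above 0 in wild type, a log2 difference of -2.26 or lower. It was also above 0 on the arrays labelled Cry-deficient, for a difference of -1.99 or lower. These are bounds, because the Clock mutant CT14 value was set to the floor. Read the other way, the ratio of the Clock mutant to wild type was above 0 at CT02 and below 0 at CT14 for Cry1, again a difference of -2.26 or lower, from the same 4 arrays. For Cry2 that ratio was also above 0 at CT02 and below 0 at CT14, with a difference of -0.43. On the values as deposited the ratio at CT02 was below 0 for both genes.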

How the results depend on the processing

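A log2 ratio counted as moved if it shifted by more than 1.5-fold or crossed 2-fold. Of 42 recomputed Cry2 ratios none moved, and of 42 for Cry1 3 did. With the floor at the 25th percentile Cry1 was at -2.43 between the times in the Clock mutant and at -2.90 for the Clock mutant against wild type at CT14, since 366 units then counted as a reading. On the values as deposited Cry1 was at 0.94 for Cry-deficient against wild type at CT02.

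Counts of probe sets past 2-fold moved more. In the order of the time comparisons in wild type, Clock mutant and Cry-deficient, then the Clock mutant and then Cry-deficient against wild type at CT02 and CT14, they were 293, 519, 391, 789, 625, 457 and 301. With the floor at the 25th percentile they were 1578, 2162, 1850, 2833, 2366, 2047 and 1621, and past 3-fold they were 59, 114, 104, 212, 166, 134 and 79. On the values as deposited the count was 932 between the times in the Clock mutant, of which 93.0% were higher at CT14, and 1357 for the Clock mutant against wild type at CT02, of which 6.12% were higher. After scaling 289 of 519 and 303 of 789 were higher. Signal over background limits what can be read: between 5.39% and 8.90% of kept probe sets were at the floor on an array. No paired analysis was possible because each group has 1 array.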

Other observations

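Beyond the genes described, Clock itself read 1155 at CT02 and 3025 at CT14 on the arrays labelled Cry-deficient, its lowest and highest values of the 6 arrays, 2.62-fold apart. The wild-type arrays gave 2429 and 1551, and those of the Clock mutant 1641 and 2069. Fbxw11, which encodes a ubiquitin ligase subunit that acts on PER proteins, went the same way on the arrays labelled Cry-deficient (1774 and 4719). In the Clock mutant Fbxw11 was under the floor at CT02 and read 1029 at CT14, at least 4.17-fold and 2.51-fold below wild type. Of 18 kept genes of the clock lists with a RefSeq window upstream, Cul1 and Tef held CACGTG in any window of theirs. Among all 32851 windows, counted by window and not by gene, 6.02% held it.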
